A study of Caenorhabditis elegans with 2 samples.

Results

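The 9 genes described here encode the enzymes of upper glycolysis in Caenorhabditis elegans, from hexokinase to triosephosphate isomerase. They are the hexokinase genes hxk-1, hxk-2 and hxk-3, the glucose-6-phosphate isomerase gene gpi-1, the phosphofructokinase genes pfk-1.1 and pfk-1.2, the aldolase genes aldo-1 and aldo-2, and the triosephosphate isomerase gene tpi-1. They were chosen by enzyme, not by signal, and are 9 of the 19973 protein-coding genes examined. Each gene was given a window from 5000 bp upstream of its start to its end, and every HIF-1 peak with its summit in that window was counted. These windows held 15 of the 3531 peaks that passed the irreproducible discovery rate (IDR) procedure, which weighs how alike regions rank in both replicates. The IDR peaks were also the strongest regions of the pooled candidate list.

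The data are ChIP-seq of HIF-1 in whole L4 larvae of mixed sex, collected 52 hours after synchronization as starved L1 larvae. Both samples are biological replicates of a single group of strain OR3349, a stable transgenic line in which HIF-1 carries GFP and FLAG at its C terminus, and anti-GFP was used for the immunoprecipitation. The labels give neither the oxygen level nor the copy number or promoter of the transgene, and no control library or other condition was analysed here, so the values describe where regions lie and how strong they are, with no test of a change. Whole larvae were used, so the tissue in which a region is bound cannot be told. The 4 lists read were the IDR list, the list of 30000 candidate regions from both replicates pooled, and the candidate list of each replicate, also of 30000 regions. Candidate lists include background by design. The signal of a region is the authors' deposited value, scaled within its own list only, so replicates are compared by rank. The depth behind the lists is unknown, because they hold no read counts.

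HIF-1 is the oxygen-regulated subunit of the hypoxia-inducible factor. In normal oxygen it is hydroxylated by EGL-9 and degraded, and in low oxygen it accumulates, pairs with AHA-1 and binds hypoxia response elements, whose core is ACGTG or GCGTG. Upper glycolysis spends ATP to turn glucose into triose phosphates; in mammals several of its genes are textbook targets of HIF. Hexokinase and phosphofructokinase catalyse regulated, practically irreversible steps, whereas the isomerases and aldolase work near equilibrium and also serve gluconeogenesis.

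Of the 9 genes, 8 had at least 1 IDR summit in the window, against 23.7% of all protein-coding genes (4730 of 19973). The exception was pfk-1.2. There were 5 members with 2 or more summits, against 5.73% of all genes, namely hxk-1, gpi-1, pfk-1.1, aldo-1 and tpi-1. Of these summits, the weaker at gpi-1 and the 2 weaker at tpi-1 lay nearest to the start of another gene. The 2 pfk-1.1 regions overlap. Again 5 members (hxk-3, gpi-1, pfk-1.1, aldo-1 and tpi-1) had a summit among the 353 strongest IDR peaks, against 3.42% of all genes. In the narrower promoter window (1000 bp before a transcript start and 200 bp after it), 6 of 9 members had a summit, against 12.1% of all genes. The members' windows were longer than usual, with a median of 9.61 kb against 7.03 kb for all genes. Per kb of window, the members still held more IDR summits, 0.158 against 0.0393 over all genes. The pooled candidates, which include background and the IDR peaks, were also denser there, at 0.717 per kb against 0.290 over all genes. The higher density was thus not particular to the IDR summits. These are counts for a set chosen by function with earlier results of these data known, and no test was attached to them.

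**Figure D1:**
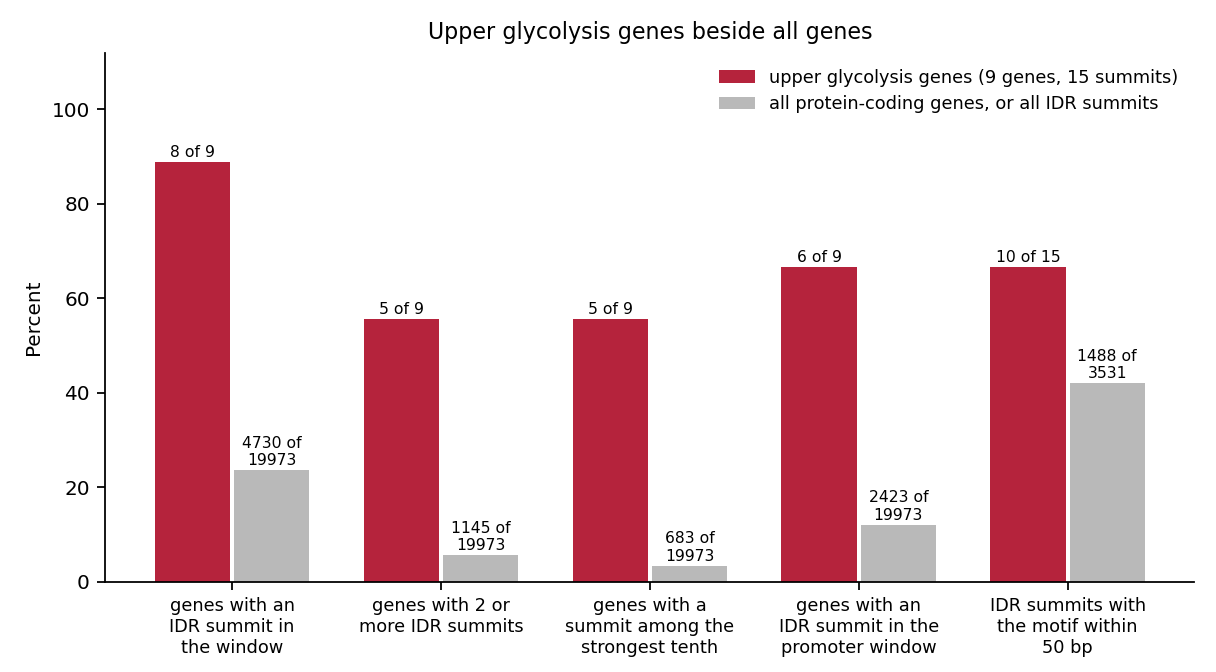
Percent of upper glycolysis genes (red, left bars) and of all protein-coding genes (grey, right bars) with an IDR summit in each kind of window, and in the last pair the percent of IDR summits with ACGTG or GCGTG within 50 bp. Counts stand above the bars, and the red bar is the higher in all 5 pairs, from 8 of 9 genes with a summit to 5 of 9 genes with 2 or more.

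The 15 summits had a median signal of 268 and a median rank of 761, against a median signal of 158 and a median rank of 1766 over all IDR peaks. Their signals ran from 104 to 2516, against 95.1 to 7830 over all IDR peaks. The strongest summits of the 8 genes fell in the order tpi-1, gpi-1, aldo-1, pfk-1.1, hxk-3, hxk-1, hxk-2 and aldo-2. Replicate 2 gave the same order, and replicate 1 differed only in placing aldo-1 before gpi-1, so these neighbours are not separated beyond the spread of the replicates. With 2 replicates, the order of the other neighbours rests on agreement in both lists alone. Each enzyme of upper glycolysis had at least 1 gene with an IDR summit.

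**Figure D2:**
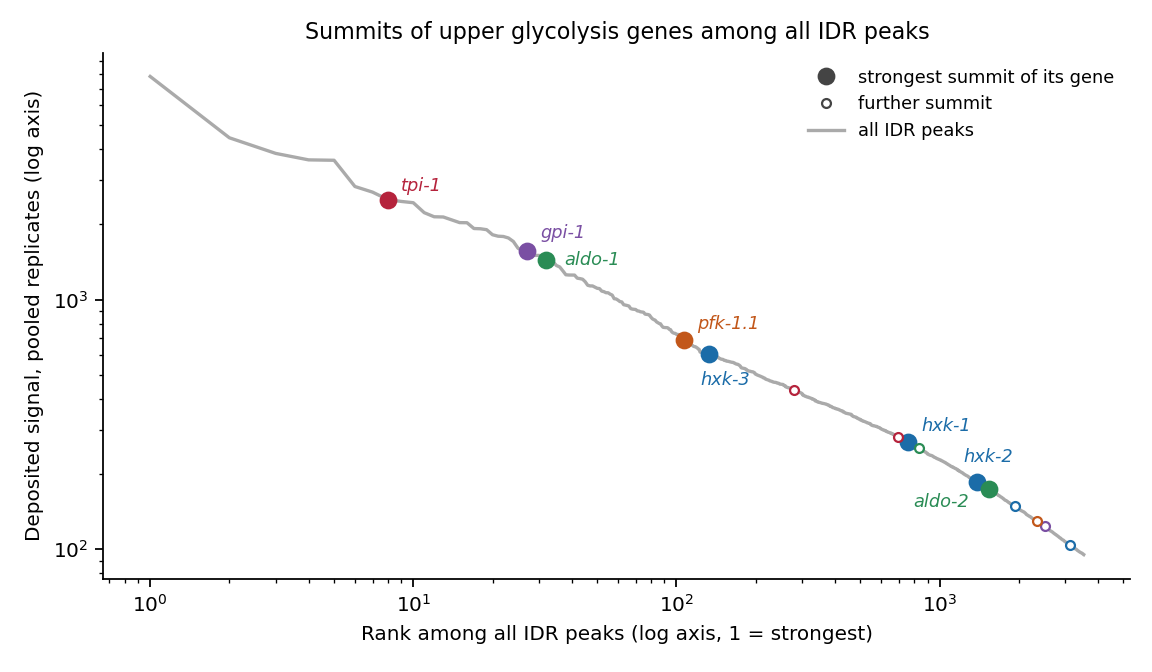
Deposited pooled signal of all 3531 IDR peaks against rank, both on log axes (grey line), with the members' strongest summits as filled points and further summits as open points. The tpi-1 summit lies at rank 8, gpi-1 and aldo-1 at ranks 27 and 32, and the strongest summits of hxk-1, hxk-2 and aldo-2 lie at ranks 761, 1389 and 1540.

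Hexokinase phosphorylates glucose as it enters the pathway. Of the hexokinase genes, hxk-3 (WBGene00022306, IV:1497626-1510027, plus strand) carried the strongest region, a single IDR peak at IV:1497410-1497852. Its signal was 604 in the pooled list, at rank 133, and its rank was 165 in replicate 1 and 126 in replicate 2. The summit lay 29 bp into the gene in the annotated 5′ UTR. It also falls in the 5000 bp window of npp-20, a nucleoporin gene. The palindrome CACGTG, which holds the core element on both strands, lay 45 bp from the summit. The 30 bases around it are shown because they hold the element nearest to the strongest hexokinase summit, with the element in capitals (RefSeq, WBcel235):
hxk-3 element, chrIV:1497686-1497715, plus strand: tcttcaattctgCACGTGcggactgccctt
At 17.4 kb this was the longest of the 9 windows, and with 1 summit it had 0.0575 IDR summits per kb. A weaker candidate at IV:1495970-1496385, 1448 bp upstream, missed the IDR list. Its pooled signal of 86.2 ranked 3986, and its ranks of 17657 in replicate 1 and 2969 in replicate 2 were far apart. By pooled signal it was the strongest of the members' regions outside the list, and the weakest inside was the hxk-1 region with 104. An aldo-1 candidate summit outside the list, 426 bp upstream of that gene, had a pooled signal of 46.0. It lies in the same interval as the strongest aldo-1 IDR peak, III:13564892-13565489, and so is a further summit within a listed region. This candidate summit ranked 618 in replicate 1 and 5540 in replicate 2.

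The window of hxk-1 (WBGene00008780, I:9271479-9278689, minus strand) held 3 IDR summits, all of moderate or low rank. The strongest, at I:9279368-9279618, lay 827 bp upstream of the gene start. Its pooled signal was 268 at rank 761, with ranks of 931 in replicate 1 and 776 in replicate 2. Another lay within the gene at I:9275295-9275493, in an intron, 1590 bp upstream of an alternative transcript start. It had a signal of 148 at rank 1934 and ranked 3618 in replicate 1 and 1630 in replicate 2. The 5000 bp window of F14B4.1 holds it as well. The weakest, at I:9280521-9280936 and 2040 bp upstream, had a signal of 104 at rank 3125, with ranks of 4483 and 2755 in replicates 1 and 2. Replicate 1 thus placed both weaker summits beyond rank 3531, the length of the IDR list, whereas replicate 2 placed both inside it. Each of the 3 summits had ACGTG within 50 bp, and the intronic one had 2 copies, 10 and 36 bp away.

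The window of hxk-2 (WBGene00010416, I:11311524-11323110, minus strand) held 1 IDR summit at I:11323262-11323447, 252 bp upstream of the gene. Its pooled signal was 186 at rank 1389, and it ranked 1674 in replicate 1 and 1494 in replicate 2. The summit lay nearer to cdk-9, a kinase gene of transcription elongation, with 165 bp to the cdk-9 start, and sat in the promoter windows of both genes. The region can therefore be assigned to either gene by position. Among the strongest summits of the 8 genes it was the only one without ACGTG or GCGTG within 50 bp, the nearest copy being 190 bp away. The hexokinase genes thus covered a wide range of signal, from 186 at hxk-2 and 268 at hxk-1 to 604 at hxk-3.

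Glucose-6-phosphate isomerase, which converts glucose 6-phosphate to fructose 6-phosphate, is encoded by gpi-1 (WBGene00013597, I:13576148-13581611, plus strand). Its main region at I:13576295-13576896 had a pooled signal of 1567 at rank 27, with ranks of 38 in replicate 1 and 25 in replicate 2. The summit lay 408 bp into the gene, in an intron, and 99 bp upstream of an internal transcript start. It thus falls in the promoter window of that transcript, and also in the 5000 bp window of cyn-15, a cyclophilin gene. The region was 602 bp wide and held 9 matches of the core element on either strand, with a CACGTG palindrome counted on both. That is 15.0 per kb, against a median of 3.04 per kb over all IDR regions. The median over all member regions was 4.41 per kb, and the strongest tpi-1 region had 1.54. The much weaker intronic hxk-1 region, at rank 1934, was as dense, with 3 matches in 199 bp or 15.1 per kb. Within 50 bp of the main gpi-1 summit there were 2, a GCGTG 9 bp and an ACGTG 36 bp away. The weaker summit of the window, at I:13571932-13572347, had a signal of 123 at rank 2517, and ranked 4089 in replicate 1 and 2375 in replicate 2. It lay 4008 bp upstream of gpi-1 but 93 bp from the start of cyn-15, and within the promoter windows of cyn-15 and nyn-2. It had no core element within 50 bp.

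**Figure D3:**
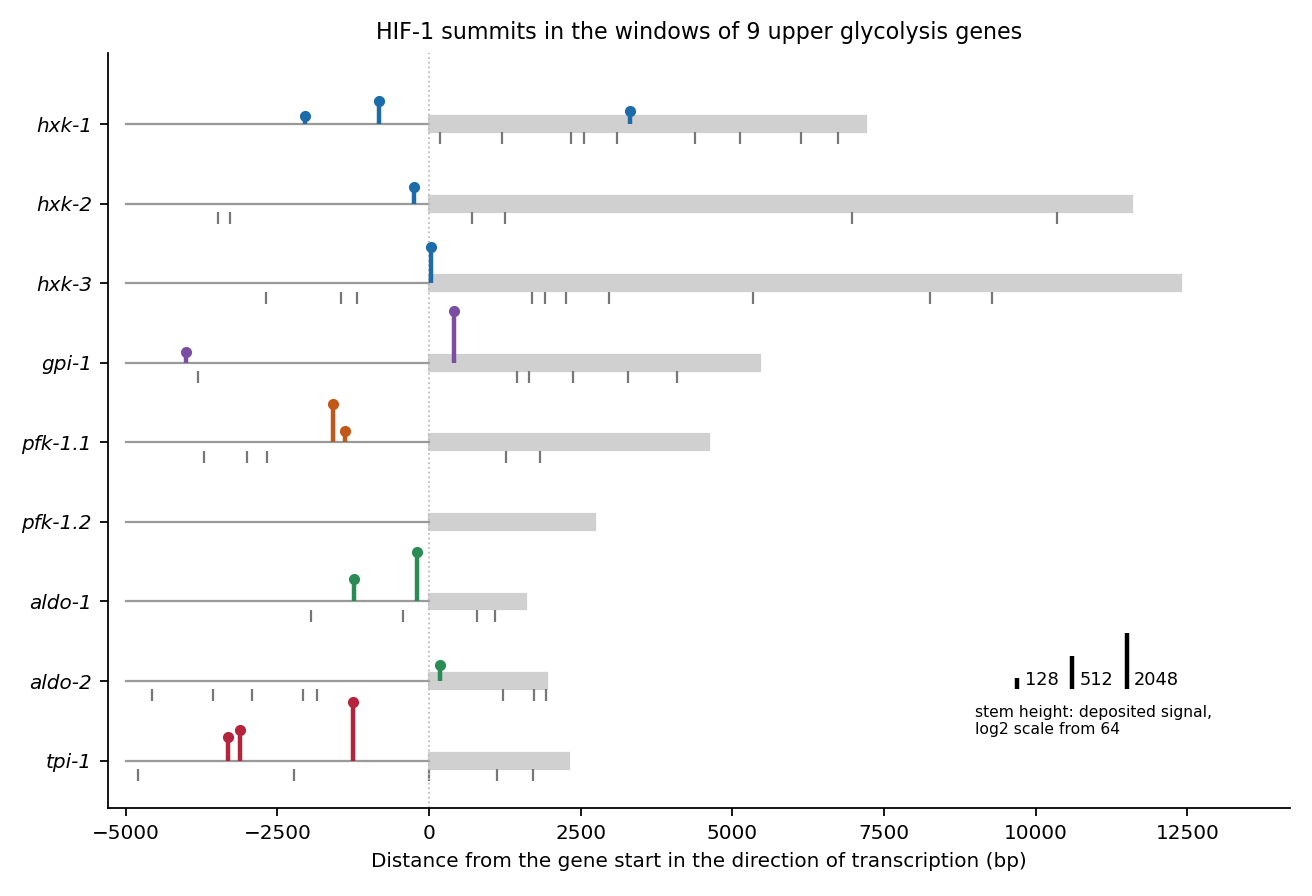
Windows of the 9 genes drawn in the direction of transcription, in bp from the gene start, with the gene as a grey bar and the upstream 5000 bp as a line. Stems mark IDR summits, with height on a log2 scale of pooled signal that starts at 64, and short ticks mark pooled candidates below the IDR list; pfk-1.2 has no mark of either kind, and the tallest stem is that of tpi-1.

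Phosphofructokinase, the committing step, is encoded by a pair of genes that differed. No region was found at pfk-1.2 (WBGene00008230, V:9531801-9534537, plus strand): its 7.74 kb window had 0 summits in the IDR list, 0 in the pooled candidate list and 0 in either replicate list. Of all protein-coding genes, 26.0% likewise had no candidate in any of the 3 candidate lists, and pfk-1.2 was 1 of 9 members in that state. The nearest IDR summit upstream lay 28.2 kb away at V:9503470-9503609, nearest to the start of haao-1. The nearest downstream lay 2209 bp past the gene end at V:9536538-9536953, with a signal of 163 at rank 1690, nearest to the start of C50F4.4. The absence is one of called regions, and weak binding below the candidate lists cannot be seen in them.

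At pfk-1.1 (WBGene00022199, X:2940872-2945485, plus strand), which in C. elegans supports synaptic function under energy stress, 2 IDR summits lay in overlapping regions that share their start at X:2939058. The stronger, in the region ending at 2939511 and 1585 bp upstream of the gene, had a pooled signal of 691 at rank 107. It ranked 101 in replicate 1 and 109 in replicate 2. The weaker, in the region ending at 2939590 and 1379 bp upstream, had a signal of 130 at rank 2337 and ranked 1045 in replicate 1 against 6857 in replicate 2, the widest split among the 15 summits. A non-coding RNA gene, Y71H10A.3, lies within 250 bp of both summits. The stronger summit sat almost on a core element, 3 bp from its centre, and the weaker had none within 50 bp. Both 101 bp windows are shown so that this difference can be read, with the element in capitals (CACGT is ACGTG read on the minus strand; the summit is base 51; RefSeq, WBcel235):
pfk-1.1 stronger summit, chrX:2939237-2939337, plus strand: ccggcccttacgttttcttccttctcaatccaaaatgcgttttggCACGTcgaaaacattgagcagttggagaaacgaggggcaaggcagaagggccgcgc
pfk-1.1 weaker summit, chrX:2939443-2939543, plus strand: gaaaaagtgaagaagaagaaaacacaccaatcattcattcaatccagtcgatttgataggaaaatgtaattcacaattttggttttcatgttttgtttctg
Base composition differed too, with 53.5% GC around the stronger summit and 30.7% around the weaker, against a median of 46.5% over all IDR summits.

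Aldolase splits fructose bisphosphate into triose phosphates. Of the aldolase genes, aldo-1 (WBGene00011474, III:13563346-13564937, minus strand) had a region among the strongest of the set, at III:13564892-13565489. The pooled signal was 1434 at rank 32, and the ranks were 36 in replicate 1 and 30 in replicate 2. Its summit lay 199 bp upstream of the gene, with an ACGTG 7 bp from it. A weaker summit at III:13566094-13566317, 1245 bp upstream, had a signal of 254 at rank 833, with ranks of 770 and 888 in replicates 1 and 2, and a GCGTG 12 bp away. Both also fall in the 5000 bp window of T05D4.2. By contrast, aldo-2 (WBGene00017166, III:5874673-5876625, minus strand) had 1 region at III:5876319-5876501, with a signal of 174 at rank 1540 and ranks of 1712 in replicate 1 and 1661 in replicate 2. That is the lowest strongest summit among the 8 genes, yet 56.4% of all IDR peaks were weaker. Its summit lay in the 5′ UTR, 184 bp into the gene and 29 bp downstream of an annotated transcript start, with an ACGTG 37 bp away. It was in a crowded stretch, shared with the 5000 bp windows of F01F1.11, F01F1.2 and hpo-10. The strongest summit of aldo-1 was thus above that of aldo-2 in both replicates. The core element is present within 50 bp of all 3 aldolase summits. The windows at both aldo-1 summits and 30 bases at the aldo-2 element are therefore shown (element in capitals, RefSeq, WBcel235):
aldo-1 stronger summit, chrIII:13565086-13565186, plus strand: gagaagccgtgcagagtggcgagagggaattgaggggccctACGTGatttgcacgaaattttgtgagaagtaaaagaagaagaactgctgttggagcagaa
aldo-1 weaker summit, chrIII:13566132-13566232, plus strand: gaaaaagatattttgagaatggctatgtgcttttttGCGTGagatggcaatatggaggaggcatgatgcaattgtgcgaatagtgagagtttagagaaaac
aldo-2 element, chrIII:5876464-5876493, plus strand: cagagaactgaaACGTGatattcttgtact

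Triosephosphate isomerase interconverts the triose phosphates, and tpi-1 (WBGene00006601, II:12036835-12039139, minus strand) had the strongest region of all members. The region at II:12040053-12040701 had a pooled signal of 2516 at rank 8 of the 3531 IDR peaks, and it ranked 8 in replicate 1 and 9 in replicate 2. It was 649 bp wide and its summit lay 1259 bp upstream of the gene, outside the promoter window, with tpi-1 still the nearest annotated start. The windows of cyn-16 and ippk-1 hold it as well. The 101 bp around the summit, shown because this is the strongest site in the set, hold 1 core element 29 bp from the summit (CACGT in capitals is ACGTG on the minus strand; the summit is base 51; RefSeq, WBcel235):
tpi-1 strongest summit, chrII:12040348-12040448, plus strand: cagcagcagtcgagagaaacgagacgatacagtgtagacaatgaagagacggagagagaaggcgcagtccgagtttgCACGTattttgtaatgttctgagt
Further upstream, 2 summits lay in overlapping regions that both start at II:12042024, at 3111 and 3311 bp from the gene. Their signals were 435 at rank 279 and 281 at rank 694. The stronger of these ranked 185 in replicate 1 and 345 in replicate 2, and the weaker 553 and 680. Both lay nearer to ippk-1, an inositol phosphate kinase gene, at 660 and 460 bp from its start and inside its promoter window, and neither had a core element within 50 bp. The snoRNA gene Y17G7B.25 lies within 250 bp of the stronger one. With 3 summits in 7.31 kb, tpi-1 had the densest window, 0.411 IDR summits per kb, ahead of aldo-1 with 0.303.

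All 15 summits were found in both replicate lists within 100 bp, against 96.1% of all IDR summits. The median distance between a pooled summit and its replicate summit was 10 bp in each replicate, and the largest was 22 bp in replicate 1 and 25 bp in replicate 2. With each replicate list limited to its top 3531 regions, 11 of the 15 were found in both, against 69.8% of all IDR summits. The missing 4 were the weaker summits of hxk-1, gpi-1 and pfk-1.1. At the level of genes, 8 of 9 members had a candidate of both replicates in the window, against 55.8% of all genes. Below the IDR list the 9 windows held 53 further pooled candidates, and 14 of these were found in both replicates, against 28.1% of all pooled candidates below the list (7436 of 26469). With the IDR peaks included, the members' windows held 0.717 pooled candidates per kb, against 0.290 over all genes.

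**Figure D4:**
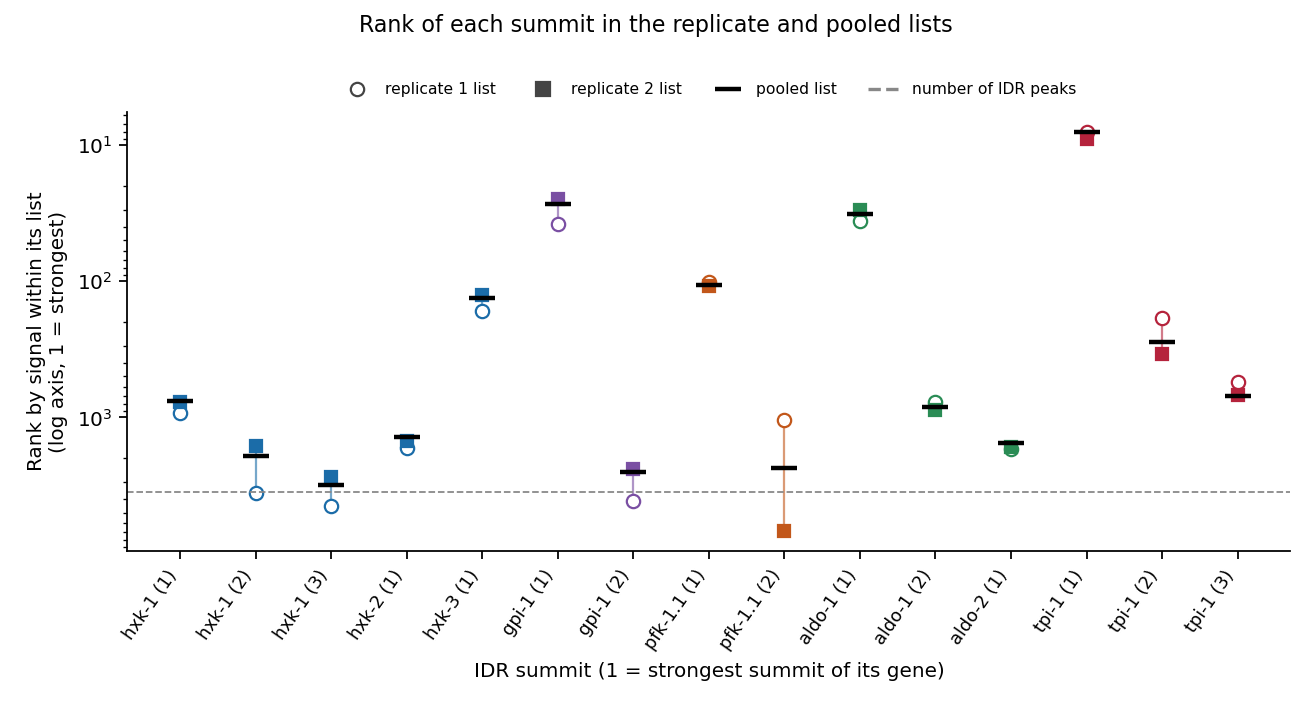
Rank of each of the 15 summits by signal in the replicate 1 list (open circles), the replicate 2 list (squares) and the pooled list (bars), on a log axis with the strongest at the top; the dashed line is rank 3531. The strongest summits of tpi-1, gpi-1, aldo-1, pfk-1.1 and hxk-3 lie above rank 200 in every list, and the weaker pfk-1.1 summit is split between ranks 1045 and 6857.

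By annotation, 11 of the 15 summits were intergenic, 2 were intronic, 2 were in a 5′ UTR and 0 were in coding exons. The nearest transcript start belonged to the member for 11 summits and to another gene for 4, which are the hxk-2 summit, the weaker gpi-1 summit and the 2 weaker tpi-1 summits. The median distance to the nearest start was 660 bp, against 553 bp over all IDR summits. Among the 5 members with a summit in the 353 strongest, tpi-1 and pfk-1.1 had it more than 1000 bp upstream, whereas hxk-3, gpi-1 and aldo-1 had it within 200 bp of a start of their own.

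The core element was present within 50 bp of 10 of the 15 summits, against 42.1% of all IDR summits (ACGTG or GCGTG, either strand, the whole match inside the window). ACGTG was found at 9 and GCGTG at 2, against 24.3% and 21.8% of all IDR summits, with both at the main gpi-1 summit. Of the 8 strongest summits of the genes 7 had the element, and among the other 7 summits 3 had it. Among the 353 strongest IDR peaks of all genes 61.8% had it. At equally wide stretches 500 bp to either side, 6 of the 15 on the left and 3 on the right held the element, against 15.0% and 14.2% for all IDR summits. A match is a run of letters and was not tested as a binding site.

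**Figure D5:**
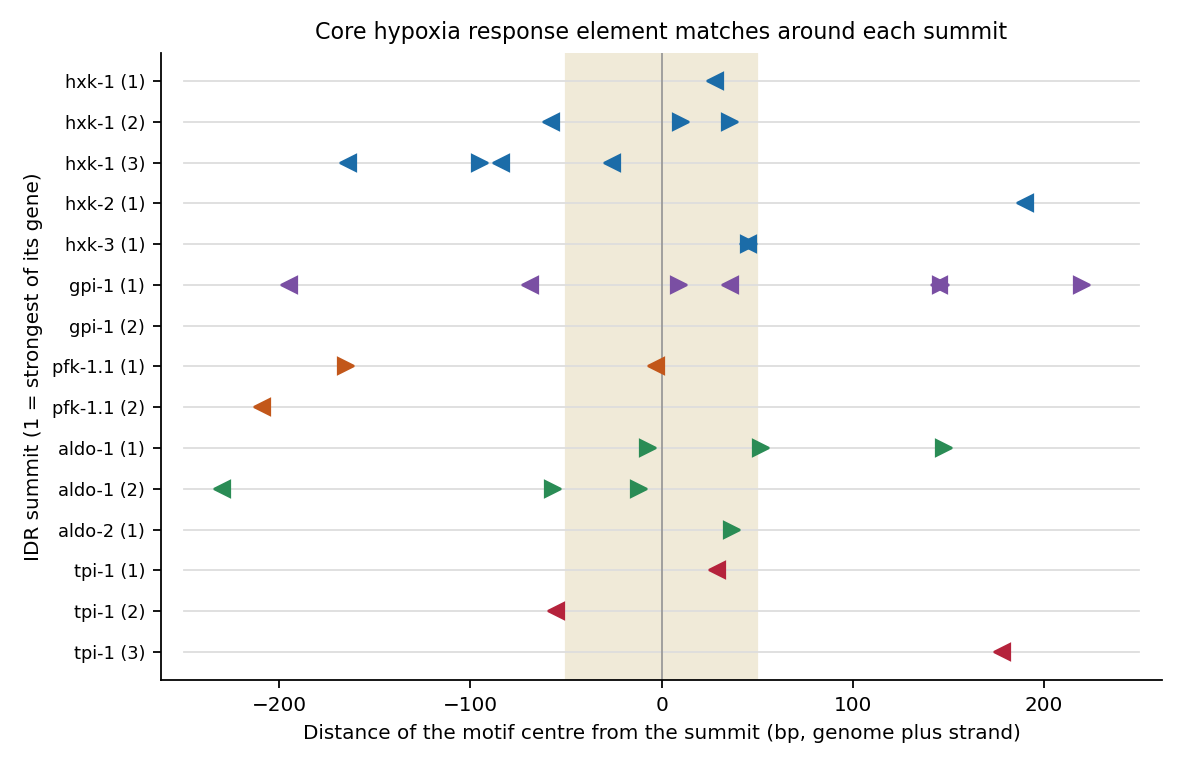
Matches of the core element around each of the 15 summits, in bp from the summit on the genome's plus strand, with the arrow giving the strand; the shaded band is the 50 bp on either side. Of the 15 summits 10 have a match in the band, and the stronger pfk-1.1 summit has one 3 bp from its centre.

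The genes around upper glycolysis were read in the same way, from lists drawn up with earlier results known. In lower glycolysis 9 of 10 genes had an IDR summit in the window, against 23.7% of all protein-coding genes. Of the 10 genes 5 had one among the 353 strongest peaks, against 3.42% of all genes, and the windows held 0.208 summits per kb against 0.0393 over all genes. The glyceraldehyde-3-phosphate dehydrogenase genes gpd-2 and gpd-3 share 1 region, which these counts take at both genes. Its signal was 3627 at rank 4, above every member of upper glycolysis. The lactate dehydrogenase gene ldh-1 had 1415, the enolase gene enol-1 1218, and the pyruvate kinase gene pyk-2 had no summit, while pyk-1 had one of 375. In the list of gluconeogenesis and fructose bisphosphate regulation 5 of 6 genes had a summit, against 23.7% of all protein-coding genes, led by the phosphoenolpyruvate carboxykinase gene pck-1 with 3614 at rank 5. Its paralog pck-2 had 211 at rank 1141. The fructose bisphosphatase gene fbp-1, whose enzyme opposes phosphofructokinase, had 466 at rank 237. The gene without a summit in this list was pfkb-1.2. The pfkb genes, of which pfkb-1.1 had a summit of 127 at rank 2405, encode the enzyme that makes an activator of phosphofructokinase. Upper glycolysis had a summit at 8 of 9 genes and lower glycolysis at 9 of 10, a difference that was not tested.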

How the data were processed

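HIF-1 ChIP-seq region lists of 2 biological replicates were used. Per the deposited file lists, the authors called regions for each replicate and for both pooled against a control alignment and derived an optimal IDR list. The deposited signal and the deposited −log10 q-value are the authors' own, and the q-value was tabulated only. An aligner, peak caller or IDR threshold was not given in the sources used here; depth is unknown. Coordinates follow the ce11 lists, and ce11 is the WBcel235 assembly; the ce10 lists were not used here. Genes came from Ensembl release 115 and sequences from the RefSeq WBcel235 genome. Summits were counted in windows from 5000 bp upstream to the gene end and in promoter windows. A summit was found in a replicate when that list had a summit within 100 bp. ACGTG or GCGTG was searched within 50 bp of summits and in flanks 500 bp away. All 9 members and all 15 of their IDR summits are named; other genes are named as neighbours or as members of the pathway lists. Members and lists were chosen with earlier results of these data known. With 1 group, nothing was tested between conditions. The code was tested on simulated data. Python 3.11.15, numpy 2.4.6 and pandas 2.3.3 were used.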

Additional observations from a re-analysis of the deposited data

How the results depend on the processing

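Of 34 alternative settings for the counts, 30 stayed within 1.5 times the reported count. Some of these settings could move a count in a single direction only, such as wider windows, which cannot lose a summit. A count of 8 among 9 members could not rise by 1.5 times. The 34 do not cover the ranks of the strongest summits, which are given for each replicate above. With only the 353 strongest IDR peaks, 5 members (3.42% of all genes) and 6 of the 15 summits were left. With 1000 bp upstream in place of 5000 bp, 7 summits were left, at 6 members against 13.9% of all genes. With the element searched within 25 bp of the summit, 5 of 15 summits had it, against 25.01% of all IDR summits, so the members lay near the background there. Within 100 bp 11 of 15 had it, against 59.8% of all IDR summits. Each of the lower counts comes from fewer peaks or bases searched. Without replicate 1 the windows held 15 summits and without replicate 2 they held 14, at 8 members in both cases. These totals are not all the same summits as the 15 reported. Of those 15, only 12 were among the 3531 strongest regions of replicate 1 and 14 among those of replicate 2. The promoter windows of 6 members held a summit without either replicate. Counting only summits whose nearest start is the member's left 7 members and 11 summits, since the hxk-2 summit lies nearer to cdk-9. No paired analysis was possible because there is a single group. The lists give called regions only: neither read depth nor binding too weak to be listed can be seen, and windows of neighbouring genes overlap, so a region may belong to another gene than the member.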

Other observations

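In the branches that leave hexose phosphate, 6 of 13 genes matched in the annotation had an IDR summit in the window, with 0.0717 summits per kb, against 23.7% of all protein-coding genes and 0.0393 summits per kb over all genes. The 6 were the glycogen genes gsy-1 (signal 1213 at rank 43), pygl-1 (950.2 at rank 64), agl-1 (591 at rank 142) and gyg-1 (181 at rank 1451), the trehalose synthase gene tps-2 (256 at rank 820) and gspd-1 (232 at rank 968), whose enzyme opens the pentose phosphate pathway. The other 7 genes had none: the hexosamine genes gfat-1 and gfat-2, the pentose phosphate genes tkt-1, tald-1 and rpia-1, the glycogen gene gyg-2 and the trehalose gene tps-1.

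The 3 members with the highest signal, tpi-1, gpi-1 and aldo-1, each had TACGTG within 50 bp of the summit. The hexamer was picked after the sequences at the summits had been seen. It was at 3 of the 15 member summits, at 7.96% of all IDR summits and at 21.2% of the 353 strongest.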
